A study of Homo sapiens with 9 samples.

Results

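The 30 genes described here encode the enzymes that build cholesterol, the proteins that govern the sterol regulatory element binding proteins (SREBPs), and fatty acid enzymes whose genes SREBPs activate. They were listed by name from the pathway, with no threshold on their array values, and make up 30 of the 16082 tested genes with a symbol. The list was, however, chosen with earlier results of these data known. Expression was measured in HEK293 cells, a line from human embryonic kidney, stably infected with a retroviral vector. The vector carried an shRNA against SmcHD1, either shRNA 3 (KD3 cells) or shRNA 4 (KD4 cells), or in control cells (CTL) the shRNA NC5. All groups carried the vector, were selected with puromycin and received no further treatment, and each was measured on 3 one-colour Agilent arrays. SmcHD1 is a chromosomal protein known for its part in X inactivation and in the silencing of gene clusters. The methods call the arrays biological triplicates, but do not say whether they came from separate infections, so that p-values measure the spread between these samples.

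Cholesterol is made from acetyl-CoA by way of mevalonate, farnesyl diphosphate, squalene and lanosterol. When membrane sterol is low, SCAP escorts the SREBPs from the endoplasmic reticulum to the Golgi, where proteases release a fragment that enters the nucleus and switches on most genes of the pathway. When sterol is plentiful, INSIG proteins hold SCAP and SREBP back. SREBPs bind the sterol regulatory element, usually next to bound NF-Y or Sp1, and the fatty acid branch shares this control.

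Promoter windows from 250 bases before to 50 bases after each start were given for 26 of the 30 genes in a RefSeq table of GRCh38.p14. The 26 genes had 36 windows. The sterol regulatory element TCACNCCAC, searched on both strands, was found in 1 of the 36 windows (2.78%), that of SREBF2, against 1.13% of all 35116 windows in the table. An NF-Y box (CCAAT) was found in 24 windows (66.7%), against 34.6% of all windows, and an Sp1 box (GGGCGG) in 32 (88.9%), against 45%. Such a match describes letters only, and neighbouring Sp1 matches can share bases. Sites that differ from these letters or lie outside the windows were not searched. A window without a match is therefore not shown to lack a site, and the share for the sterol element rests on 1 window. The window of SREBF2 is shown because it alone held a match to the sterol element. Those of FADS1, TM7SF2 and INSIG1 are shown because these genes had the largest differences from CTL, ranked by the smaller of the KD3 and KD4 differences. They run 5′ to 3′ on the strand of the gene, and capitals mark a match to any of the 3 motifs on either strand. The windows lie at chr22:41832855-41833154 (plus strand), chr11:61816954-61817253 (minus strand), chr11:65111622-65111921 (plus strand) and chr7:155297628-155297927 (plus strand), in the order printed.
SREBF2: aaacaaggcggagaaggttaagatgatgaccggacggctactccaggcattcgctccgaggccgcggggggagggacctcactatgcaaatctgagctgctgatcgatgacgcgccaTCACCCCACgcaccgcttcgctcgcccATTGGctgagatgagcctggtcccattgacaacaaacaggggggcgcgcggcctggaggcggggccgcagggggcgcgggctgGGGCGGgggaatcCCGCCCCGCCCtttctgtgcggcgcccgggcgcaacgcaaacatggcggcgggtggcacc
FADS1: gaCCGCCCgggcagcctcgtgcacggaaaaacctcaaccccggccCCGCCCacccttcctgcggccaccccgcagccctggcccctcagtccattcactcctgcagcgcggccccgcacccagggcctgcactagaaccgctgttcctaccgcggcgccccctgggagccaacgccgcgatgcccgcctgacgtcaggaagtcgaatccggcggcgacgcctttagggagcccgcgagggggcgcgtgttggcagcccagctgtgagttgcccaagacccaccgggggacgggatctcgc
TM7SF2: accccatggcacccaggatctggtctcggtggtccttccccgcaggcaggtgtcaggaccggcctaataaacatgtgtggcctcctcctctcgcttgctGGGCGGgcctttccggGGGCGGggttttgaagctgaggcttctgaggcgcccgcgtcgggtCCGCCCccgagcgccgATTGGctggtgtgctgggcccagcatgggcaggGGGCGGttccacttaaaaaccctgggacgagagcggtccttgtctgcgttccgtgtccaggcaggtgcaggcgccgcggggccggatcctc
INSIG1: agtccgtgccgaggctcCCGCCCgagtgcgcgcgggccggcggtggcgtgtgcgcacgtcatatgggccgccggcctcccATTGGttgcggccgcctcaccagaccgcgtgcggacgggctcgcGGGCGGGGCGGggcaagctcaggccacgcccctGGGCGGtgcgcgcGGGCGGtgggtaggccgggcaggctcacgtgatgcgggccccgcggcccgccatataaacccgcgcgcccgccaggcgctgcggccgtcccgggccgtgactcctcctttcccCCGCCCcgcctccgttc

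SMCHD1 itself was lower in both knock-downs. By its brightest probe, the normalized log2 signal differed from CTL by -0.97 in KD3 (standard error 0.0897, limma adjusted p = 0.00021) and by -1.53 in KD4 (standard error 0.0897, limma adjusted p = 1.8e-05). The share of probes detected well above background ranged over the arrays from 75.1% to 79.8%, and median processed signals from 119.6 to 181.4. All 7 HEK293 markers were well above background on all 9 arrays, but their mean log2 signal was lower in the knock-downs, at 11.63 to 11.69 in KD3 and 11.71 to 11.76 in KD4, against 12.19 to 12.25 in CTL. Of these, NEFM stood furthest below CTL together with the brightest PAX2 probe, at log2 differences of -1.21 and -2.41 in KD3. Another PAX2 probe stood at -0.01. By their brightest probes, the markers did not move together. NEFL also passed lower, at -0.33 in KD3 and -0.41 in KD4. KRT18 stood at 0.04 in KD3 and passed higher in KD4 (0.34, limma adjusted p = 0.018). VIM, KRT8 and LIN28B passed in neither knock-down, at -0.08, -0.17 and 0.18 in KD3 and 0.08, 0.21 and 0.23 in KD4. Of 5 markers of other cell types, taken by their brightest probes, 4 were well above background on all arrays and the hepatocyte marker ALB on 1 of 9. Of the 4 probes of the leukocyte marker PTPRC, however, some were well above background on no array. The mean log2 signal of the 5 markers was 6.05 to 6.18 in KD3, 6.18 to 6.46 in KD4 and 6.16 to 6.33 in CTL. In KD3 the fibroblast marker COL1A1 (-0.37, limma adjusted p = 0.016) and the muscle marker MYOD1 (-0.44, limma adjusted p = 0.038) passed lower. In KD4 they stood at 0.02 and -0.21 and did not pass. By their brightest probes, PTPRC and the leukocyte marker CD3E passed in neither knock-down. The part of these shifts in the results below was not tested.

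All 30 genes were well above background on all 9 arrays. A gene is given by its brightest probe, and it passed when the Benjamini-Hochberg adjusted p of limma, over all probes tested, was under 0.05. In KD3, 7 genes fell, namely HMGCS1, CYP51A1, TM7SF2, EBP, SC5D, FADS1 and FADS2, and only ACLY rose. That is 23.3% lower and 3.33% higher, beside 14.8% lower and 10.4% higher among all tested genes. In KD4, 5 genes fell (CYP51A1, TM7SF2, EBP, FADS1 and FADS2) and 3 rose (LSS, INSIG1 and ACLY), or 16.7% and 10.0%, beside 19.8% lower and 14.7% higher among all tested genes. Genes of the pathway were thus called in both directions. The share called lower lay above the background in KD3 and below it in KD4, but these shares rest on few genes. Without KD3 replicate 2 or KD3 replicate 3, only 3 genes were called lower in KD3. By the methods' t-test with adjustment, 0 of the 30 genes passed in KD3 and 2 in KD4, CYP51A1 and EBP. Whether the shares differ from the background was not tested.

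In both knock-downs 5 genes passed lower and 1 higher, beside 12.1% and 7.92% of all tested genes, while 20 of the 30 passed in neither, as did 60.4% of all tested genes. Both comparisons use the same CTL arrays, so a shared call is not independent evidence. The median log2 difference over the 30 genes was -0.067 in KD3, where that of all tested genes was -0.014, and 0.008 in KD4, where that of all tested genes was 0.002. With the fold threshold of 1.8 given in the methods added, FADS1 in KD3 was the 1 gene left, beside 4.43% of all tested genes. By its brightest probe, no gene of the 30 in KD4 passed that fold with an adjusted p under 0.05 by limma, beside 5.59% of all tested genes, and 0 did so at an unadjusted p under 0.05 by limma or by the methods' t-test. A dimmer probe of ACACA, described below, did pass it in KD4. In bulk RNA, a lower signal from fewer cells of a kind and one from less RNA per cell cannot be told apart.

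**Figure D1:**
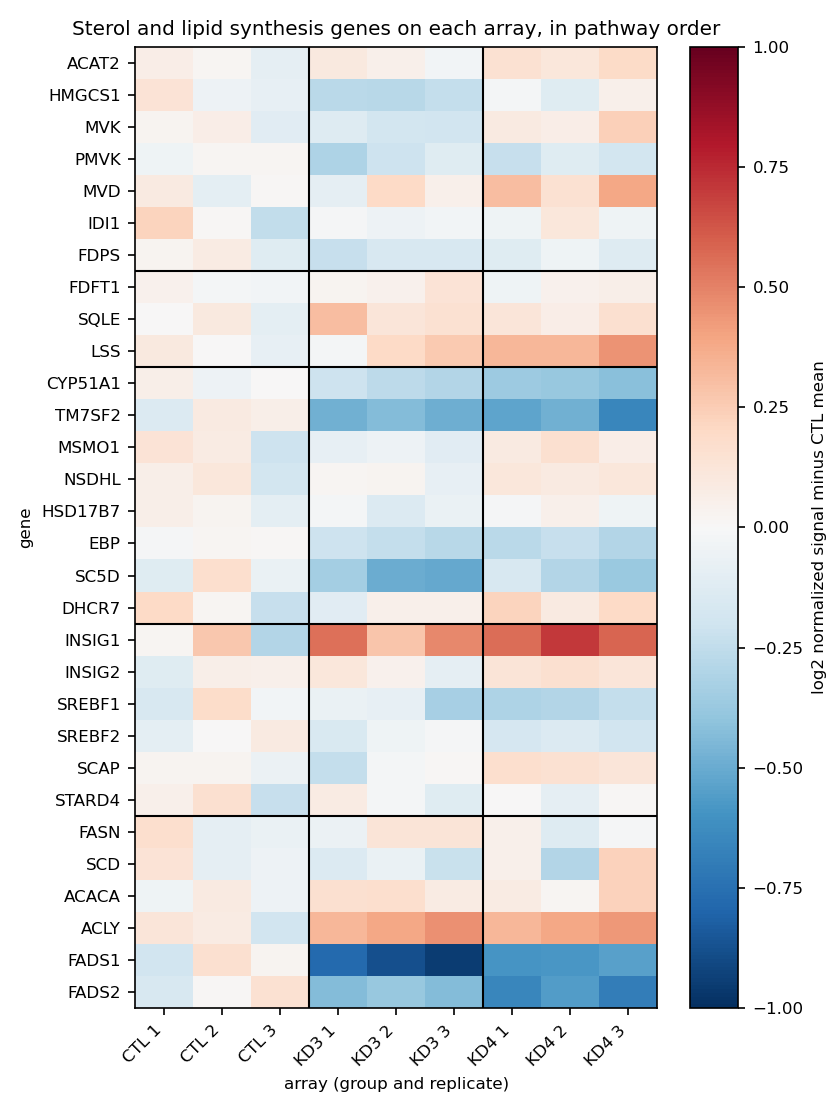
Heat map of the 30 genes (rows, in pathway order, with lines between the steps) on the 9 arrays (columns). Colour gives the normalized log2 signal minus the CTL mean of that gene, from blue for lower to red for higher; FADS1, FADS2, TM7SF2, CYP51A1 and EBP are blue on all 6 knock-down arrays and ACLY is red on all 6.

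The steps from acetyl-CoA to farnesyl diphosphate held 7 of the genes, and of these HMGCS1 alone passed, lower in KD3. HMGCS1 makes HMG-CoA, the precursor of mevalonate. Its log2 signals were 11.34, 11.33 and 11.37 in KD3, 11.59, 11.49 and 11.66 in KD4, and 11.75, 11.56 and 11.53 in CTL. All KD3 arrays lay below all CTL arrays, whereas KD4 and CTL overlapped. HMGCS1 differed from CTL by a log2 difference of -0.27 in KD3 (95% interval -0.45 to -0.08, limma adjusted p = 0.048) and -0.03 in KD4 (95% interval -0.21 to 0.15, limma adjusted p = 0.82). This call was at the threshold, since it was lost in each of 9 fits that left out 1 array, with log2 differences from -0.3 to -0.2 and adjusted p up to 0.13, and in 8 of 13 other settings.

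The other 6 genes of these steps passed in neither knock-down. The log2 difference of ACAT2, which joins acetyl-CoA units, was 0.04 in KD3 and 0.15 in KD4. MVK, the mevalonate kinase, read 13.05, 13 and 12.99 in KD3, 13.27, 13.25 and 13.42 in KD4, and 13.21, 13.25 and 13.07 in CTL. Its KD3 arrays were the lowest and its KD4 arrays were the highest or level with the highest CTL array. The log2 difference of MVK was -0.17 in KD3 (adjusted p = 0.17) and 0.14 in KD4 (adjusted p = 0.21) by limma. For PMVK, which adds the next phosphate, the log2 differences were -0.21 (adjusted p = 0.071) and -0.17 (adjusted p = 0.11), with every knock-down array below every CTL array. MVD, the decarboxylase that follows, stood at 0.06 in KD3 and 0.28 in KD4 (adjusted p = 0.066 in KD4). IDI1, the isomerase of isopentenyl diphosphate, differed from CTL by -0.03 and 0.01, and the synthase FDPS by -0.18 and -0.09. Over the 7 genes the median log2 difference was -0.165 in KD3 and 0.011 in KD4.

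From farnesyl diphosphate through squalene to lanosterol, LSS was the one gene of 3 that passed, higher in KD4. LSS, lanosterol synthase, closes the sterol rings. Its log2 signals were 11.38, 11.60 and 11.66 in KD3, 11.73, 11.73 and 11.85 in KD4, and 11.5, 11.4 and 11.32 in CTL. The KD4 arrays were the highest, and the KD3 arrays overlapped CTL. LSS differed from CTL by a log2 difference of 0.37 in KD4, or 1.29-fold (95% interval 0.16 to 0.58, limma adjusted p = 0.018), and 0.14 in KD3 (95% interval -0.07 to 0.35, limma adjusted p = 0.33). A second, dimmer probe of LSS gave 0.77 in KD4 (adjusted p = 0.0057) and 0.27 in KD3 (adjusted p = 0.25). The KD4 call by the brightest probe was lost without KD4 replicate 3 or without CTL replicate 3, where the adjusted p reached 0.066 and log2 differences over all left-out arrays ran from 0.32 to 0.41. For FDFT1, squalene synthase, the log2 differences were 0.07 and 0.03, and for SQLE, squalene epoxidase, 0.19 (adjusted p = 0.14) and 0.11 (adjusted p = 0.33). Neither passed.

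The steps from lanosterol to cholesterol held most of the sterol genes that fell. Of 8 genes, 4 fell in KD3, where 14.8% of all tested genes did, and 3 (37.5%) fell in KD4, where 19.8% did. None of the 8 rose by limma, and at an unadjusted p under 0.05 the counts over both directions were 4 in each knock-down, beside 39.1% of all tested genes in KD3 and 46.7% in KD4. The median log2 difference was -0.164 in KD3 and -0.132 in KD4.

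CYP51A1, the demethylase that first acts on lanosterol, fell in both knock-downs. On the log2 scale its signals were 12.93, 12.88 and 12.85 in KD3, 12.78, 12.76 and 12.72 in KD4, and 13.20, 13.09 and 13.14 in CTL. The groups did not overlap, with CTL highest and KD4 lowest. CYP51A1 differed from CTL by a log2 difference of -0.26 in KD3, 1.2-fold lower (95% interval -0.4 to -0.12, limma adjusted p = 0.021), and -0.39 in KD4, 1.31-fold lower (95% interval -0.54 to -0.25, limma adjusted p = 0.0024). KD4 against KD3 gave -0.13 (95% interval -0.28 to 0.01, limma adjusted p = 0.29). In KD3 the call was lost without KD3 replicate 2 or 3 or without CTL replicate 1 or 3, with an adjusted p of at most 0.07 and log2 differences from -0.28 to -0.23. It was also lost with scaling to the 75th percentile (-0.21, adjusted p = 0.059) and with only KD3 and CTL in the fit (adjusted p = 0.07).

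TM7SF2 encodes the sterol reductase of the next step and had the largest fall of the 8 genes in both knock-downs. It read 8.03, 8.08 and 8.02 in KD3, 7.98, 8.03 and 7.86 in KD4, and 8.37, 8.60 and 8.57 in CTL. The knock-downs overlapped each other and lay wholly below CTL. For TM7SF2 the log2 difference was -0.46 in KD3, 1.38-fold lower (95% interval -0.65 to -0.28, limma adjusted p = 0.0053), and -0.56 in KD4, 1.47-fold lower (95% interval -0.74 to -0.37, limma adjusted p = 0.0017). Both calls were kept whichever array was left out. Neither passed by the methods' t-test with adjustment (adjusted p = 0.14 in KD3 and 0.057 in KD4).

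EBP, the isomerase that shifts the double bond of the sterol ring, also fell in both. Signals on the log2 scale were 15.51, 15.48 and 15.44 in KD3, 15.45, 15.49 and 15.43 in KD4, and 15.71, 15.74 and 15.73 in CTL. The CTL arrays differed from each other by far less than from any knock-down array. On the log2 scale EBP differed from CTL by -0.25 in KD3 (1.19-fold lower, limma adjusted p = 0.02) and -0.27 in KD4 (1.2-fold lower, limma adjusted p = 0.011). In KD3 it no longer passed without KD3 replicate 2, KD3 replicate 3 or CTL replicate 3, with an adjusted p of at most 0.068 and log2 differences from -0.26 to -0.23. The KD3 call was also lost with only KD3 and CTL in the fit (limma adjusted p = 0.069). Blocking on the replicate number lost it too (limma adjusted p = 0.053). EBP lies on the X chromosome, as does NSDHL, and the log2 differences of NSDHL were -0.01 in KD3 and 0.11 in KD4, neither of which passed.

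SC5D, the desaturase that acts after EBP, passed in KD3 only. Its log2 signals were 7.86, 7.70 and 7.69 in KD3, 8.04, 7.91 and 7.83 in KD4, and 8.08, 8.37 and 8.13 in CTL. Every knock-down array was below every CTL array. SC5D differed from CTL on the log2 scale by -0.45 in KD3 (95% interval -0.68 to -0.22, limma adjusted p = 0.015) and -0.27 in KD4 (95% interval -0.5 to -0.04, limma adjusted p = 0.075). Between KD4 and KD3 it was 0.18 (95% interval -0.05 to 0.4, limma adjusted p = 0.37), so the knock-downs were not shown to differ. Without KD3 replicate 2 or 3 the KD3 call was lost, at an adjusted p of at most 0.054, with log2 differences from -0.5 to -0.36.

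The remaining 3 genes of these steps, like NSDHL, passed in neither knock-down. MSMO1, the methylsterol oxidase, differed from CTL by -0.08 in KD3 and 0.11 in KD4 on the log2 scale. HSD17B7, the keto-reductase of the same demethylation, stood at -0.07 and 0.00, and its 2 dimmer probes lay between -0.07 and 0.2. DHCR7, which makes cholesterol from its immediate precursor, read -0.00 in KD3 and 0.17 in KD4 (adjusted p = 0.29), with overlapping groups.

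**Figure D2:**
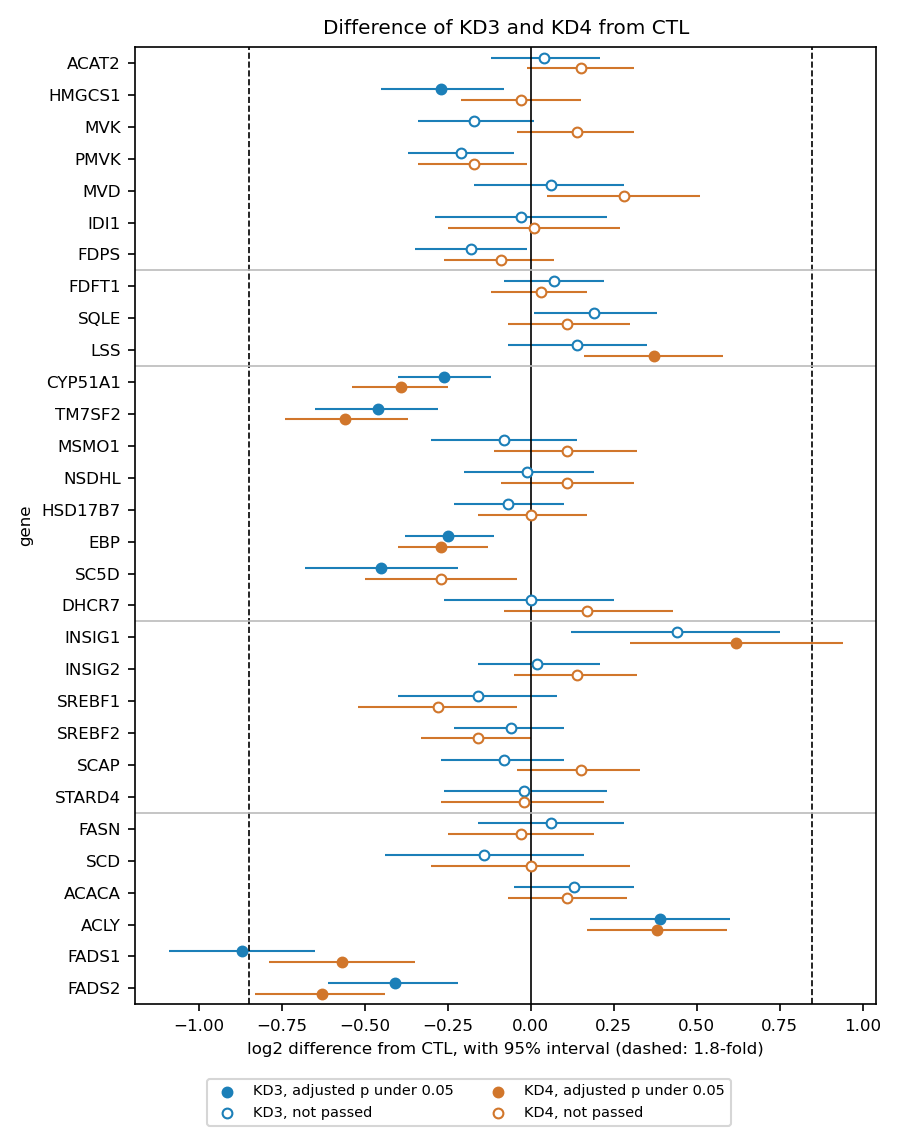
Log2 difference from CTL of the brightest probe of each gene, with its 95% interval, for KD3 (blue) and KD4 (orange); filled points passed at an adjusted p under 0.05 and dashed lines mark 1.8-fold. FADS1 in KD3, at -0.87, is the only filled point beyond a dashed line, and the open points other than INSIG1 in KD3 lie between -0.28 and 0.28.

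Of the 6 genes that control SREBP or carry sterol, INSIG1 passed in KD4 and no other gene passed in either knock-down. INSIG1 retains SCAP and SREBP in the endoplasmic reticulum and is itself a classic SREBP target. It read on the log2 scale 12.18, 11.91 and 12.11 in KD3, 12.19, 12.34 and 12.21 in KD4, and 11.65, 11.90 and 11.34 in CTL. All knock-down arrays were above all CTL arrays, although KD3 replicate 2 and CTL replicate 2 nearly met, and CTL had the widest spread. INSIG1 exceeded CTL by 0.62 in KD4 on the log2 scale, 1.54-fold higher (95% interval 0.3 to 0.94, limma adjusted p = 0.012), and 0.44 in KD3 (95% interval 0.12 to 0.75, limma adjusted p = 0.06). KD4 against KD3 gave 0.18 (95% interval -0.14 to 0.5, limma adjusted p = 0.51). The INSIG1 call in KD4 was kept whichever array was left out, with log2 differences from 0.47 to 0.75, but not by the methods' t-test, with or without adjustment. In KD3 INSIG1 passed without CTL replicate 2 (0.57, limma adjusted p = 0.02) and in 4 other settings, among them the authors' values (0.45, adjusted p = 0.044).

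INSIG2, its paralog, stood at 0.02 in KD3 and 0.14 in KD4, and its dimmer probe at -0.11 and -0.09, all on the log2 scale. SREBF2 encodes the SREBP that chiefly drives sterol genes. The log2 signals of SREBF2 were 10.97, 11.08 and 11.11 in KD3, 10.95, 10.98 and 10.93 in KD4, and 11.02, 11.12 and 11.21 in CTL. KD4 lay below CTL and KD3 overlapped it, and neither log2 difference passed, at -0.06 (adjusted p = 0.59) and -0.16 (adjusted p = 0.13) by limma. SREBF1 encodes the SREBPs with more weight on fatty acid genes. By its brightest probe SREBF1 differed by -0.16 in KD3 (adjusted p = 0.34) and -0.28 in KD4 (95% interval -0.52 to -0.04, adjusted p = 0.083), and by its dimmer probe by 0.08 and 0.07, so the probes of SREBF1 did not share a direction. Without CTL replicate 1 the brightest SREBF1 probe passed in KD4 (-0.35, limma adjusted p = 0.046). SCAP stood at -0.08 in KD3 and 0.15 in KD4, and STARD4, a cytosolic sterol carrier, at -0.02 in both.

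In the fatty acid branch, FADS1 and FADS2 fell and ACLY rose in both knock-downs, while FASN, SCD and ACACA did not pass by their brightest probes. FADS1 and FADS2 are the desaturases that make long polyunsaturated fatty acids. FADS1 read 10.11, 10.01 and 9.94 in KD3, 10.30, 10.31 and 10.35 in KD4, and 10.70, 11.05 and 10.92 in CTL. KD3 was lowest, KD4 intermediate and CTL highest, with no overlap. For FADS1 the log2 difference was -0.87 in KD3, 1.83-fold lower (95% interval -1.09 to -0.65, limma adjusted p = 0.00052), and -0.57 in KD4, 1.49-fold lower (95% interval -0.79 to -0.35, limma adjusted p = 0.003). KD4 exceeded KD3 by 0.3 (95% interval 0.08 to 0.52), which did not pass (limma adjusted p = 0.14). The KD3 value sat just past 1.8-fold (0.85 on the log2 scale) and fell short of it without KD3 replicate 3 (-0.83) or without CTL replicate 2 (-0.79), and within the slides it was -0.97 and -0.68.

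FADS2 had the opposite order of the knock-downs. The log2 signals of this gene were 8.69, 8.74 and 8.69 in KD3, 8.47, 8.56 and 8.43 in KD4, and 8.96, 9.13 and 9.27 in CTL. Here KD4 was lowest, again without overlap between groups. For FADS2 the log2 difference was -0.41 in KD3, 1.33-fold lower (95% interval -0.61 to -0.22, limma adjusted p = 0.012), and -0.63 in KD4, 1.55-fold lower (95% interval -0.83 to -0.44, limma adjusted p = 0.0012). KD4 lay below KD3 by -0.22 (95% interval -0.42 to -0.02, limma adjusted p = 0.21). All FADS1 and FADS2 calls at an adjusted p under 0.05 were kept whichever array was left out. By the methods' t-test with adjustment, however, none of these calls passed, with adjusted p from 0.075 to 0.19.

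FADS1 and FADS2 are neighbours on chromosome 11, and the genes beside them were looked up after these values were seen. FADS3, the next gene and a member of the same family, read 7.07, 7.17 and 6.91 in KD3, 7.23, 7.09 and 7.22 in KD4, and 7.57, 7.67 and 7.63 in CTL. FADS3 fell in both, with log2 differences of -0.57 in KD3 (limma adjusted p = 0.0024) and -0.44 in KD4 (limma adjusted p = 0.006). On the other side of FADS1, FEN1, a DNA repair nuclease, stood at 0.07 in KD3 (adjusted p = 0.53) and rose by 0.36 in KD4 (limma adjusted p = 0.0072). TMEM258 differed by -0.03 and 0.07 and MYRF by -0.22 and -0.17. Beyond FADS3, RAB3IL1 stood at -0.43 (adjusted p = 0.076) and -0.41 (adjusted p = 0.068), and BEST1 at -0.49 (adjusted p = 0.18) and -0.3 (adjusted p = 0.37), none of which passed.

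**Figure D3:**
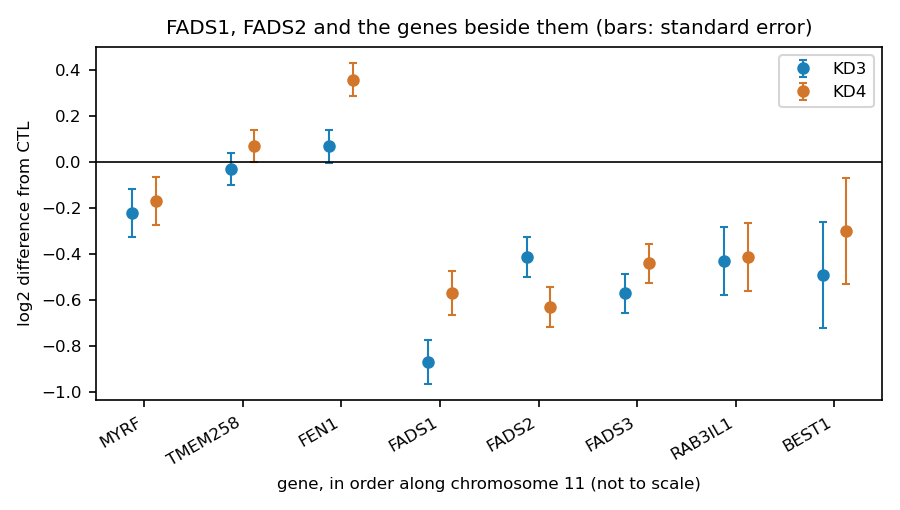
Log2 difference from CTL (vertical axis) of FADS1, FADS2 and the genes beside them in their order along chromosome 11 (horizontal axis, not to scale) for KD3 (blue) and KD4 (orange), with bars of 1 standard error. FADS1, FADS2 and FADS3 lie between -0.87 and -0.41 in both knock-downs, while TMEM258 and FEN1 lie at or above -0.03. RAB3IL1 (-0.43 in KD3, -0.41 in KD4), BEST1 (-0.49, -0.3) and MYRF (-0.22, -0.17) also lie below 0 but did not pass.

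ACLY, which makes the cytosolic acetyl-CoA used by both branches, was the only gene of the 30 that passed higher in both knock-downs. Its log2 signals were 12.43, 12.49 and 12.56 in KD3, 12.43, 12.49 and 12.53 in KD4, and 12.22, 12.18 and 11.91 in CTL. The knock-downs were nearly equal and above CTL, whose replicate 3 was the lowest array. For ACLY the log2 difference was 0.39 in KD3, 1.31-fold higher (95% interval 0.18 to 0.6, limma adjusted p = 0.02), and 0.38 in KD4, 1.3-fold higher (95% interval 0.17 to 0.59, limma adjusted p = 0.016). The KD3 call was lost without KD3 replicate 2 or 3, at an adjusted p of at most 0.066 and log2 differences from 0.29 to 0.44, and the KD4 call without KD4 replicate 3, at an adjusted p of 0.058 and log2 differences from 0.28 to 0.43. With only KD3 and CTL in the fit, the KD3 call was lost as well (limma adjusted p = 0.055).

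ACACA, the carboxylase that commits acetyl-CoA to fatty acid synthesis, gave different answers by probe. By the brightest probe the log2 signals were 13.42, 13.43 and 13.34 in KD3, 13.34, 13.28 and 13.49 in KD4, and 13.22, 13.35 and 13.21 in CTL. These groups overlapped, with log2 differences of 0.13 (adjusted p = 0.28) and 0.11 (adjusted p = 0.35). The dimmer probe, assigned to the same transcript accession, read 9.74, 9.67 and 9.80 in KD3, 9.90, 9.98 and 10.11 in KD4, and 9.13, 9.29 and 8.99 in CTL. There every knock-down array was above every CTL array, and the ACACA difference was 0.6 in KD3 (95% interval 0.38 to 0.82, limma adjusted p = 0.0033) and 0.86 in KD4 (95% interval 0.64 to 1.08, limma adjusted p = 0.00043), which at 1.82-fold passed the fold threshold. With the probes of ACACA averaged, the gene passed in both, at 0.37 (limma adjusted p = 0.015) and 0.48 (limma adjusted p = 0.0032). The values of FASN, the fatty acid synthase, were 0.06 and -0.03, and those of SCD, the stearoyl-CoA desaturase, -0.14 and -0.00, on the log2 scale. The intervals of SCD were the widest of the 20 genes that passed in neither knock-down, reaching -0.44 in KD3, and KD4 replicate 2 of SCD, at 10.84, lay below all CTL arrays while KD4 replicate 3, at 11.36, lay above them.

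**Figure D4:**
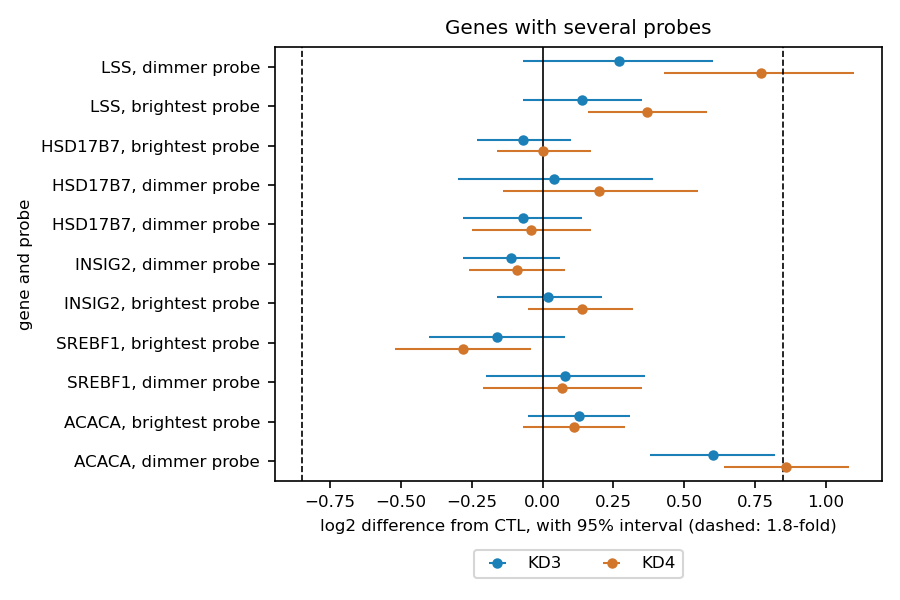
Log2 difference from CTL with its 95% interval for each probe of the 5 genes with more than 1 tested probe, in KD3 (blue) and KD4 (orange); dashed lines mark 1.8-fold. The dimmer ACACA probe stands at 0.6 and 0.86 where the brightest stands at 0.13 and 0.11, and the SREBF1 probes lie on opposite sides of 0.

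**Figure D5:**
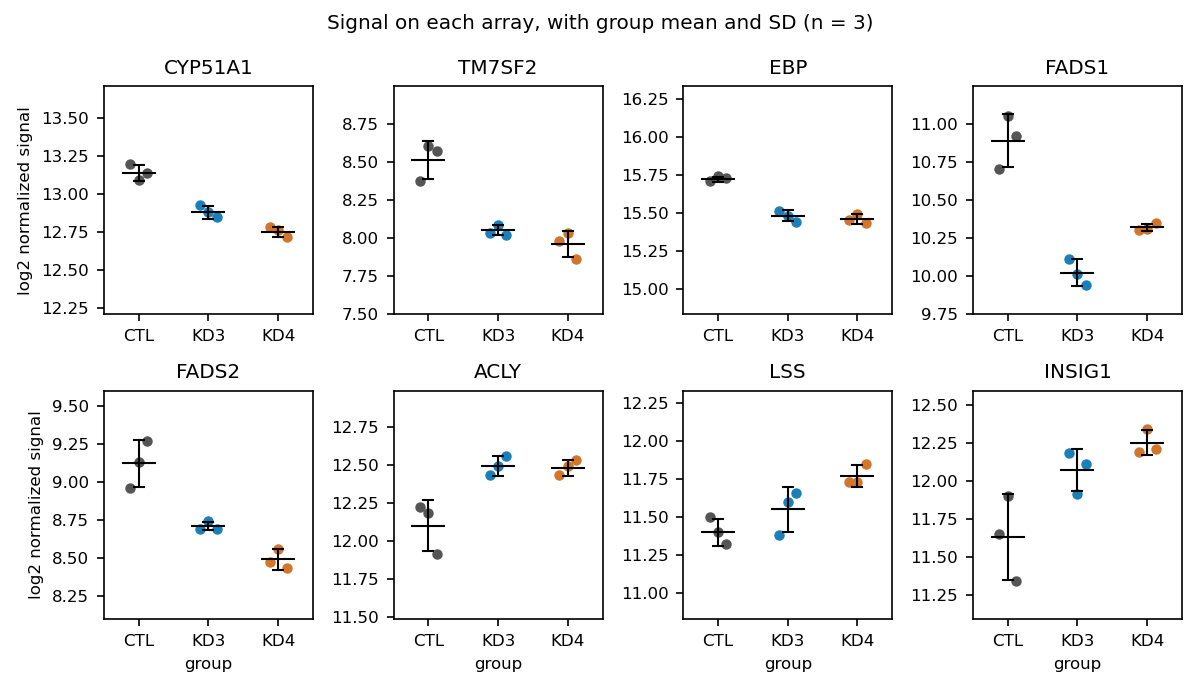
Normalized log2 signal on each array (points), with the mean and SD of the 3 arrays of a group, for 8 of the 10 genes that passed in at least 1 knock-down. Each panel spans the same number of log2 units; KD3 and KD4 lie below CTL for CYP51A1, TM7SF2, EBP, FADS1 and FADS2 and above it for ACLY and INSIG1, whereas KD3 overlaps CTL for LSS.

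Between KD4 and KD3, 0 of the 30 genes passed by limma, beside 3.25% of all tested genes. At an unadjusted p under 0.05, 6 did so by limma, beside 21.7% of all tested genes, and 6 by the methods' t-test, which gave 0 after adjustment. None passed 1.8-fold with an adjusted p under 0.05 by limma, beside 0.547% of all tested genes, and 0 did so at an unadjusted p by limma or by the t-test. The log2 difference of KD4 from KD3 had a median of 0.081 over the 30 genes and 0.012 over all tested genes. MVK and FADS1 had the highest values, each 0.3, and FADS2 the lowest, -0.22. The 95% intervals of these differences reached from -0.42 (FADS2) to 0.52 (FADS1) over the brightest probes of the 30 genes. Against CTL, the intervals of the 20 genes that passed in neither knock-down reached from -0.44 (SCD) to 0.38 (SQLE) in KD3 and from -0.52 (SREBF1) to 0.51 (MVD) in KD4. These bounds hold for the brightest probes and leave out the dimmer ones. The dimmer ACACA probe lay beyond them in both knock-downs. The interval of a dimmer HSD17B7 probe also reached past them, to 0.39 in KD3 and 0.55 in KD4.

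A further 34 genes of sterol and lipid metabolism were listed, of which 30 were tested. In KD3, 4 passed higher and 4 lower (13.3% each, beside 10.4% and 14.8% of all tested genes), and in KD4, 6 passed higher and 4 lower (beside 14.7% and 19.8%). In both knock-downs 1 passed lower and 3 higher, beside 12.1% and 7.92% of all tested genes. CYP27A1, which oxidizes the side chain of cholesterol, read 8.14, 7.96 and 7.97 in KD3, 7.77, 7.74 and 7.80 in KD4, and 8.50, 8.73 and 8.47 in CTL. The groups did not overlap, and the CYP27A1 log2 differences were -0.54 in KD3 (limma adjusted p = 0.0036) and -0.8 in KD4 (limma adjusted p = 0.00042).

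SPRING1, a Golgi protein needed for SREBP processing, rose in both knock-downs, by 0.36 (limma adjusted p = 0.032) and 0.41 (limma adjusted p = 0.015). Neither protease of that step passed, with log2 differences of -0.15 in both knock-downs for MBTPS1 and of -0.06 and -0.14 for MBTPS2. ME1, a source of NADPH for fatty acid synthesis, rose by 0.53 in KD3 (limma adjusted p = 0.0012) and 0.35 in KD4 (limma adjusted p = 0.0061). Per array, log2 signals were 10.90, 10.77 and 10.89 in KD3, 10.64, 10.73 and 10.66 in KD4, and 10.33, 10.38 and 10.26 in CTL, with CTL lowest and KD3 highest.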

How the data were processed

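One-colour Agilent arrays, 3 per group, were hybridized with RNA of HEK293 cells carrying 1 of 3 shRNAs: shRNA 3 (KD3), shRNA 4 (KD4) and NC5 as control (CTL). The authors deposited scanner files with the spot intensity (Agilent Feature Extraction 10.10), in which the green processed signal was already background-subtracted and detrended, and a table of log2 values that the authors had normalized across arrays. The latter served as an alternative and differed from the values used here by a median of -0.076. Control spots and spots marked as non-uniform or population outliers (260 to 634 of 58717 per array) were left out, and no spot was saturated. Quantile normalization was applied to the log2 signals of all 9 arrays, since the quintile normalization named in the methods was taken to mean this, and replicate spots were averaged by probe. Replicate arrays correlated at 0.995 or above. Of 42405 probes, 25422 were named through their accession and 21 lacked a value on some array. A probe was tested if all arrays of 1 group or more showed it well above background, which left 32276 probes.

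All 9 arrays entered a fit with a mean for each group in limma 3.58.1 (lmFit and eBayes, R 4.3.3), with Benjamini-Hochberg adjustment over the tested probes. The fit was tested on simulated data. By rule the genes named are the 30 members, their other probes where these fell on another side of 0 or of the threshold, SMCHD1, and other pathway genes that passed in the same direction in both knock-downs. Named outside this rule, after their values were seen, are the neighbours of FADS1 and FADS2, the SREBP proteases, the pathway genes that differed between the knock-downs, and single cell type markers. Of the other pathway genes, 1 gene that counts among those called is not reported here by name. The members and all lists were chosen with earlier results of these data known. Shares among all tested genes use the brightest probe of each gene. The alternatives replaced the quantile normalization by scaling to the 75th percentile, the processed signal by normexp (offset 50) or by the authors' table, and the filter by none or by a stricter one. Others kept outlier spots, used the t-test of the methods, adjusted or not, or limma with trend and robust estimation, fitted only the groups compared, blocked on the slide or on the replicate number, gave values within each of the 2 slides (each held all groups), averaged a gene's probes, or left out each array. The number of arrays limits the precision. Promoter windows came from RefSeq.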

Additional observations from a re-analysis of the deposited data

Results flagged for a closer look

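By limma's test of KD4 against KD3, which 3.25% of all tested genes passed, the knock-downs differed in SMCHD1 and in 2 of the 30 other pathway genes tested (6.67%). AACS, which activates acetoacetate for lipid synthesis, was higher in KD4 than in KD3 by 0.37 on the log2 scale (adjusted p = 0.036): it differed from CTL by -0.3 in KD3 (adjusted p = 0.019) and stood at 0.06 in KD4 (adjusted p = 0.54). Its arrays read 10.15, 10.13 and 10.31 in KD3, 10.55, 10.58 and 10.55 in KD4, and 10.47, 10.48 and 10.55 in CTL. NR1H3, an oxysterol receptor, was higher in KD4 than in KD3 by 0.28 (adjusted p = 0.043), at 0.00 in KD3 (adjusted p = 0.99) and 0.28 in KD4 (adjusted p = 0.0073) against CTL. The log2 signals of NR1H3 ran from 9.82 to 9.84 over KD3 and CTL and were 10.09, 10.14 and 10.11 in KD4. SMCHD1 was lower in KD4 than in KD3, by -0.56 (adjusted p = 0.019).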

How the results depend on the processing

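No called value changed sign under the alternatives run, and within each slide the differences of all passing genes kept their direction. Of genes higher in KD3 (1), there were 2 under normexp, the authors' values, outlier spots kept, limma with trend and robust estimation and the mean of probes, and 0 under the methods' t-test with adjustment and with only the 2 groups compared. Of genes lower in KD3 (7), there were 0 under the adjusted t-test and 4 with only the 2 groups. FADS1 past 1.8-fold in KD3 (1) became 0 under normexp, the adjusted t-test and the slide as a block. In KD4 the adjusted t-test left 0 of 3 higher and 2 of 5 lower (CYP51A1 and EBP). For KD4 against KD3, 1 gene was higher under normexp and 1 under limma with trend, where none was before, and the t-test without adjustment gave 4 higher and 2 lower. Leaving out 1 array gave 0 to 2 higher, 3 to 6 lower and 0 to 1 past 1.8-fold in KD3, 1 to 3 higher, 5 to 6 lower and 0 past 1.8-fold in KD4, and 0 throughout for KD4 against KD3. Without KD3 replicate 2 or replicate 3, 0 were higher and 3 lower in KD3, without CTL replicate 2, 2 were higher, without CTL replicate 3, 4 were lower, and without KD4 replicate 3, 1 was higher in KD4. The cause of these changes was not tested. Deviations from the group means correlated between same-numbered arrays from -0.0775 to 0.143, and between differently numbered arrays of different groups from -0.139 to 0.139. For KD4 and CTL, same-numbered arrays correlated at 0.0744 to 0.143 and the others at -0.112 to -0.0201. Every same-numbered pair of KD4 and CTL also shared a slide, whereas most of the others did not, so number and slide are largely confounded here. The differently numbered pairs that shared a slide correlated at -0.053 and -0.0201. For KD3 and CTL, same-numbered arrays correlated at -0.0775 to -0.00872. These values do not settle whether the number pairs the arrays. With the replicate block, 5 genes were lower in KD3, HMGCS1 and EBP being lost, and the other counts did not move. Scaling to the 75th percentile moved the share of higher calls among all genes in KD4 against KD3 from 41.9% to 53.3%. With 3 arrays per group, the 95% intervals of the log2 differences had half-widths of 0.15 to 0.302 for the brightest probes of the 20 genes that passed in neither knock-down.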
